A study of Mus musculus with 12 samples.

Results

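Aquaporins are membrane channels that let water, and in some members glycerol, cross the cell surface. The cell types of muscle differ in the members they carry. Aqp4 is the water channel of the fibre membrane, richest in fast-twitch fibres, where the dystrophin complex holds it in place. Aqp1 is the water channel of capillary endothelium and red blood cells, and Aqp7 is an aquaglyceroporin known for glycerol release from fat cells. These 3 genes were followed in mouse tibialis anterior muscle with and without the transcription factor Dux. They were chosen by symbol from a count table of 12752 genes, by name and with no threshold, at a time when earlier results of these data were known. Every level, fold change and p-value of the 3 genes below is therefore a description of where the gene stands in the whole-table fit, and supports nothing by itself.

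The muscles came from male C57BL/6 mice that received intramuscular injections at 8 weeks of age. Control muscles received AAV:TET and AAV:MCS, an empty vector, and opposite-limb muscles AAV:TET and AAV:Dux. After 7 days on standard chow the mice stayed on it or moved to chow with doxycycline at 600 mg/kg, the drug that switches on the Dux transgene. The 12 RNA-seq libraries form 4 groups of 3. EV had the empty vector and normal chow, EV_DOX the empty vector and doxycycline, DUX the Dux vector and normal chow, and DUX_DOX the Dux vector and doxycycline. AAV:TET was common to all groups. Doxycycline lasted 2 or 7 days and vector doses varied, per the labels, which tie neither to single libraries. They do not say whether the libraries of a group came from separate animals, so a p-value here reflects variation among libraries that may be technical. Every cell of the muscle contributed RNA, so that fewer cells of a type and less RNA per cell cannot be told apart.

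Library totals ran from 11880593 to 13811999 counts, and levels are given as CPM, counts scaled to the library total after TMM normalization. A gene passed, or was called, at an adjusted p under 0.05 over all genes tested. Induction was read only indirectly, from AW822073, a transcript beside Dux. It had 143 counts over the DUX_DOX libraries against 3 (DUX), 1 (EV_DOX) and 0 (EV). Dux itself is not analysed here. The myosin genes marked the tissue as fast muscle, since in EV the level per kilobase of merged exons was 7978 CPM for Myh4, 1747 for Myh1, 90.1 for Myh2 and 0.311 for Myh7, the myosins of IIb, IIx, IIa and slow fibres. Some libraries stood apart in other tissue. The slow myosin Myh7 had 116 CPM in EV_DOX 2 and 69.3 CPM in DUX_DOX 2 against 1.24 to 6.42 CPM in the other 10, and the summed tenocyte markers had 1035 CPM in EV 3 and 974 CPM in EV_DOX 1 against 105 to 324 CPM elsewhere. Results on the 3 genes are given without these libraries where that changes them.

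Of 12 symbols of the aquaporin family, 4 were in the table, the 3 genes and Aqp11, an intracellular member. The table holds genes with a mean count of 10 or more, so the other 8 are not analysed here. In GRCm38 Aqp1 (ENSMUSG00000004655) lies on the plus strand of chromosome 6 from 55336432 to 55348555, with 4 merged exons of 2627 bases. Aqp4 (ENSMUSG00000024411) lies on the minus strand of chromosome 18 from 15389496 to 15410982, with 11 merged exons of 6233 bases. An antisense gene on the other strand overlaps it, with 0 bases shared between exons. Aqp7 (ENSMUSG00000028427) lies on the minus strand of chromosome 4 from 41033074 to 41048139, with 10 merged exons of 2828 bases. All 3 are protein-coding, and no annotated gene overlaps Aqp1 or Aqp7.

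Aqp1 was the most abundant of the family in every group. Per kilobase of merged exons its mean level in EV was 171 CPM (SD 20.5, n = 3), against 10.4 CPM (SD 0.808) for Aqp4, 4.07 CPM (SD 0.873) for Aqp7 and 0.153 CPM (SD 0.0414) for Aqp11. The order was the same in DUX_DOX, with 151 CPM per kilobase for Aqp1, 3.22 for Aqp4 and 2.78 for Aqp7, so that Aqp4 came close to Aqp7 there. The ranges of Aqp4 (2.83 to 3.64) and Aqp7 (2.60 to 3.09) per kilobase overlapped in DUX_DOX, whereas in EV Aqp4 lay above Aqp7 in every library.

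Aqp4 had the lowest levels where Dux was induced. It stood at 63.3, 70.8 and 61.2 CPM in EV 1 to 3, and at 72.3, 57.5 and 71.9 CPM in DUX 1 to 3. On doxycycline it stood at 41.5, 47.0 and 46.2 CPM in EV_DOX 1 to 3, and at 22.7, 17.7 and 19.8 CPM in DUX_DOX 1 to 3. The 3 DUX_DOX libraries lay below all others, the 3 EV_DOX libraries lay between, and the EV and DUX libraries on normal chow overlapped. The counts behind these values ran from 247 to 963 per library.

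**Figure D1:**
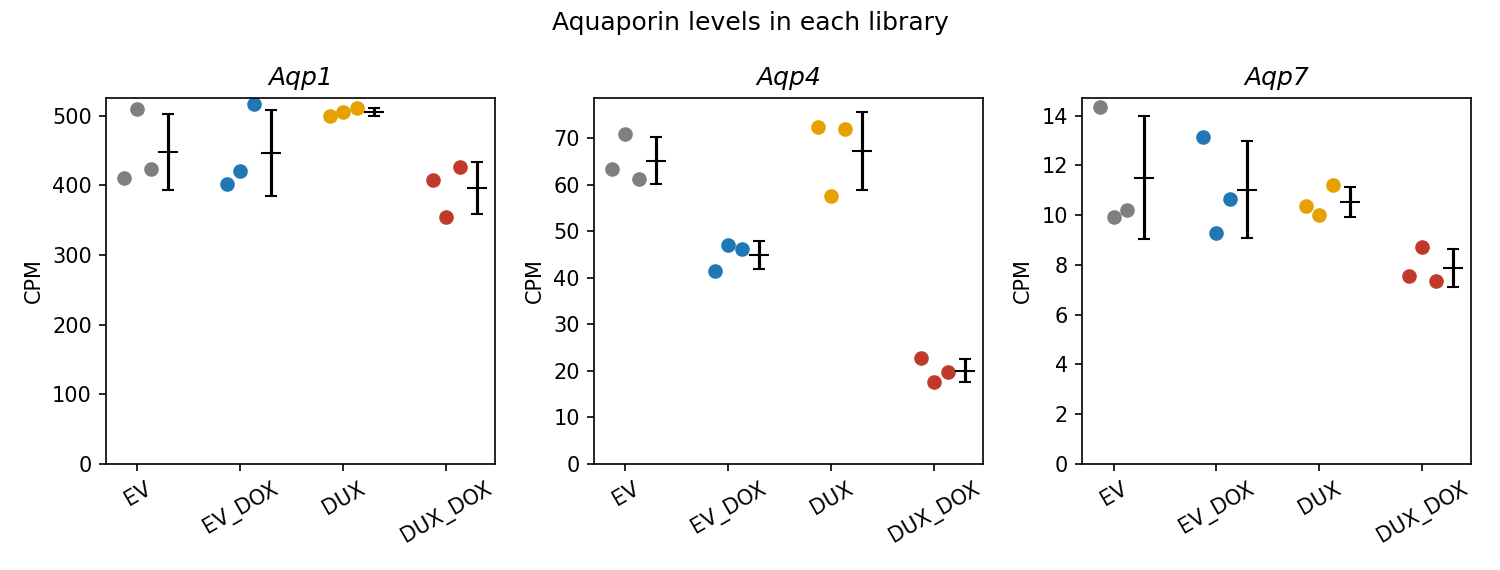
Levels of Aqp1, Aqp4 and Aqp7 in CPM (vertical axis, from 0) in each of the 12 libraries, by group. Points are libraries and black bars the mean and SD of 3 libraries. Aqp4 in DUX_DOX (17.7 to 22.7 CPM) lies below every other library, whereas the Aqp1 groups overlap except DUX_DOX and DUX.

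The first comparison asked what Dux does in muscle on doxycycline chow, DUX_DOX against EV_DOX. Aqp4 went from a mean of 44.9 CPM (SD 2.96, n = 3) to 20.1 CPM (SD 2.53, n = 3), a log2 fold change of -1.16 (SE 0.11, 95% interval -1.41 to -0.92, edgeR quasi-likelihood adjusted p = 5.95e-06 over 12751 genes). By fold change it ranked 81 from the lowest of these genes. It was lower in 3 of 3 libraries, and without any 1 library the log2 fold change stayed between -1.26 and -1.09. Without EV_DOX 1 it was -1.22, without EV_DOX 2 -1.16 and without DUX_DOX 2 -1.09, the libraries high in tenocyte or slow fibre markers.

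Aqp7 was lower too, with a result that did not hold without single libraries. It stood at 13.1, 9.29 and 10.6 CPM in EV_DOX 1 to 3, and at 7.54, 8.72 and 7.34 CPM in DUX_DOX 1 to 3. The groups did not overlap, and EV_DOX 1 was the highest of the 6. The log2 fold change was -0.49 (SE 0.16, 95% interval -0.84 to -0.13, edgeR adjusted p = 0.0435). The call was lost without any 1 of EV_DOX 1 (-0.34, adjusted p = 0.162), EV_DOX 3 (adjusted p = 0.0717), DUX 1 (0.0582), DUX 2 (0.0573), DUX 3 (0.0548), DUX_DOX 1 (0.104) or DUX_DOX 3 (0.135). Over the 20 alternatives the adjusted p ran between 0.0218 and 0.162.

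Aqp1 did not pass the test in this comparison. It stood at 402, 420 and 517 CPM in EV_DOX 1 to 3, and at 408, 354 and 427 CPM in DUX_DOX 1 to 3, and the groups overlapped. The log2 fold change was -0.17 (SE 0.11, edgeR adjusted p = 0.291), with a 95% interval from -0.42 to 0.07. Aqp11, with 10 to 35 counts per library, had a log2 fold change of -0.66 (SE 0.36, edgeR adjusted p = 0.191). Thus 2 of the 3 genes passed, both lower, where 25.3% of all genes tested passed and 10.3% were lower. Their groups did not overlap either, as for 38.7% of all genes. Of all genes, 21.4% had groups apart and higher in DUX_DOX, and 17.3% apart and lower.

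**Figure D2:**
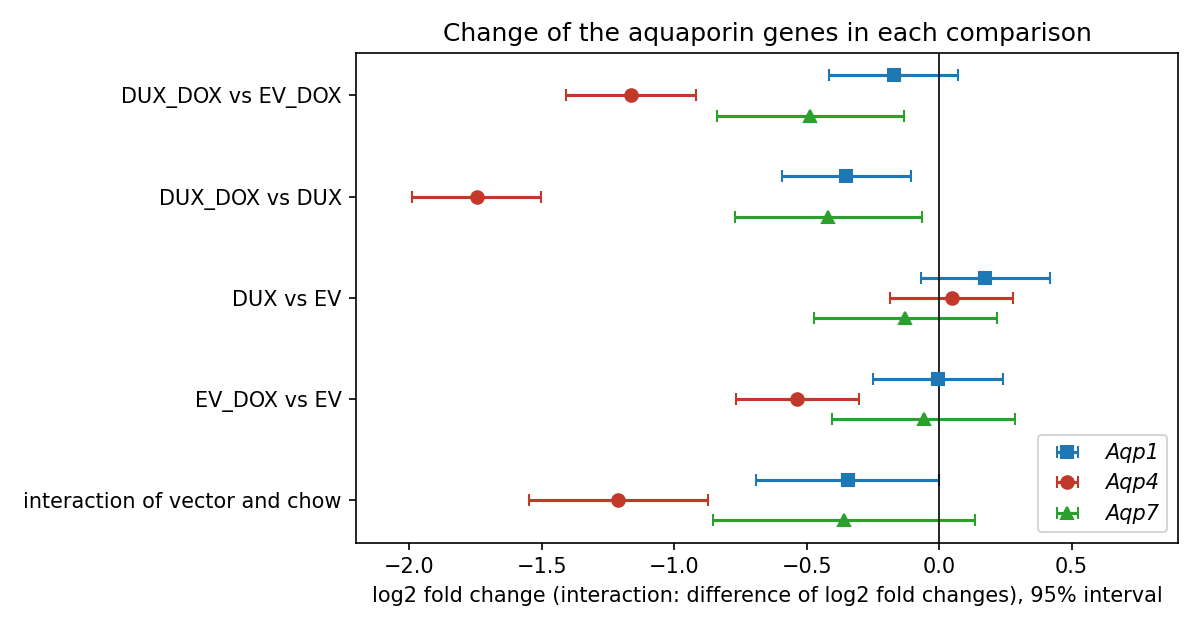
Log2 fold changes of the 3 genes (horizontal axis) with 95% intervals in the 4 comparisons, and the difference between the Dux effects on the 2 chows (interaction). Aqp4 lies at -1.16 in DUX_DOX against EV_DOX and at -1.75 against DUX, with intervals that stay below 0.

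The second comparison set induced against uninduced Dux muscle, DUX_DOX against DUX. Aqp4 went from 67.2 CPM (SD 8.45, n = 3) to 20.1 CPM, a log2 fold change of -1.75 (SE 0.11, 95% interval -1.99 to -1.50, edgeR adjusted p = 1.17e-07), and ranked 16 from the lowest of 12751 genes. Aqp1 went from 505 CPM (SD 5.37), at 500, 505 and 511 CPM in DUX 1 to 3, to 396 CPM (SD 37.7). Its groups did not overlap, and its log2 fold change was -0.35 (SE 0.11, edgeR adjusted p = 0.0323). That call was lost without DUX 1 (adjusted p = 0.0744), DUX 2 (0.0782), DUX 3 (0.0813), DUX_DOX 1 (0.0520) or DUX_DOX 2 (0.122). Over the 19 alternatives it ran between 0.00867 and 0.122. Aqp7 stood at 10.4, 10.0 and 11.2 CPM in DUX 1 to 3, above every DUX_DOX library, with a log2 fold change of -0.42 (SE 0.17, edgeR adjusted p = 0.0713). Aqp7 passed without EV 1 (adjusted p = 0.0407) or EV_DOX 1 (0.0478) and in a fit of only these 2 groups (0.0187), with values between 0.0187 and 0.185 over the 19 alternatives. Again 2 of the 3 genes passed, Aqp4 and Aqp1, where 29.6% of all genes passed and 13.1% were lower, and the groups of all 3 did not overlap, as for 48.6% of genes (22.6% lower). This comparison shares the DUX_DOX libraries with the first.

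The third comparison asked whether the Dux vector changed the genes without doxycycline, DUX against EV. None of the 3 passed, and 0% of all genes did (edgeR; 2012 genes had an unadjusted p under 0.05, and the DESeq2 Wald test called 153 genes and limma-voom 0). Without EV 2, edgeR called 118 genes and without DUX 2 it called 1. The groups of all 3 genes overlapped, whereas those of 22.9% of all genes did not. Aqp4 had 65.1 CPM (SD 5.04) in EV and a log2 fold change of 0.05 (SE 0.11, 95% interval -0.18 to 0.28), which turned to -0.01 without DUX 1 and to -0.00481 without DUX 3. Aqp1 stood at 410, 510 and 424 CPM in EV 1 to 3 and had a log2 fold change of 0.17 (SE 0.11). Aqp7 stood at 14.3, 9.94 and 10.2 CPM in EV 1 to 3, with EV 1 highest of the 12 libraries, and had a log2 fold change of -0.13 (SE 0.16), or 0.06 without EV 1.

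The fourth comparison set empty vector muscle on the 2 chows side by side, EV_DOX against EV. The empty vector limbs were opposite to Dux limbs. An effect of doxycycline chow and one of Dux induced in the opposite limb therefore cannot be told apart here. Aqp4 was lower in every EV_DOX library than in any EV library, whereas the groups of Aqp1 and Aqp7 overlapped. Of all genes 12.1% had groups apart, 5.69% higher and 6.45% lower. Its log2 fold change was -0.53 (SE 0.11, 95% interval -0.77 to -0.30), with an unadjusted p of 0.00023 in edgeR and rank 12 by p of 12751 genes. It did not pass (edgeR adjusted p = 0.244), as 0.0392% of genes did, all higher. The DESeq2 Wald test called it (adjusted p = 0.0152), and over the 19 alternatives the value ran between 0.0152 and 0.588. Aqp1 had a log2 fold change of -0.00473 (SE 0.11, 95% interval -0.25 to 0.24) and Aqp7 of -0.06 (SE 0.16). The sign of Aqp1 turned with upper-quartile scaling (0.01) and without EV 2 (0.10), EV_DOX 1 (0.07) or EV_DOX 2 (0.05), and that of Aqp7 without EV 1 (0.13) or EV_DOX 2 (0.06).

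The effect of the Dux vector differed between the chows for Aqp4. The interaction, the log2 fold change of DUX_DOX against EV_DOX less that of DUX against EV, was -1.21 (SE 0.16, 95% interval -1.55 to -0.87, edgeR adjusted p = 0.000278), where 10.4% of all genes passed, 6.97% higher and 3.43% lower. Those were 889 higher and 437 lower genes, or 811 and 615 with upper-quartile factors. For Aqp1 it was -0.35 (SE 0.16, edgeR adjusted p = 0.185), with an interval from -0.69 to -0.000304, and for Aqp7 -0.36 (SE 0.23, adjusted p = 0.339). By mean level the order for Aqp4 was DUX (67.2 CPM), EV (65.1), EV_DOX (44.9) and DUX_DOX (20.1), and only the first 2 neighbours overlapped in range. For Aqp1 the order was DUX (505 CPM), EV (448), EV_DOX (446) and DUX_DOX (396), with overlap between each pair of neighbours. For Aqp7 it was EV (11.5 CPM), EV_DOX (11.03), DUX (10.5) and DUX_DOX (7.87), with overlap in all but the last pair.

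The genes around Aqp4 at the fibre membrane moved in both directions in DUX_DOX against EV_DOX, and all that fell did so by less than Aqp4. Of 15 measured genes of the dystrophin and syntrophin complex 8 fell and 1 rose, with a median log2 fold change of -0.28. Over all genes 10.3% fell and 14.9% rose, and the median was -0.00533. Dmd, which encodes dystrophin, fell by 0.37 (SE 0.10, edgeR adjusted p = 0.0146), Dtna, the dystrophin partner alpha-dystrobrevin, by 0.40 (SE 0.07, adjusted p = 0.00108) and Sspn, sarcospan, by 0.42 (SE 0.09, adjusted p = 0.00322). Sntb1, a beta-syntrophin, rose by 1.32 (SE 0.24, adjusted p = 0.00103). Dag1, which encodes dystroglycan, had a log2 fold change of 0.17 (SE 0.08, edgeR adjusted p = 0.160). Without DUX_DOX 3, 4 genes of the list passed. In DUX_DOX against DUX, where 13.1% of all genes fell and 16.5% rose, the counts were 7 lower and 2 higher, with Dmd among the lower (-0.36, SE 0.10, edgeR adjusted p = 0.0148) and Sntb1 among the higher (0.88, SE 0.23, adjusted p = 0.00994). In the interaction Sntb1 alone of the list passed (1.53, edgeR adjusted p = 0.0105).

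The same reads can be given as ratios within each library, where Aqp4 was lowest in DUX_DOX. Per 1000 Dmd reads there were 308, 405 and 358 Aqp4 reads in EV_DOX 1 to 3 and 218, 169 and 229 in DUX_DOX 1 to 3. Per 1000 Dag1 reads there were 154 to 170.0 in EV_DOX and 51.3 to 75.7 in DUX_DOX. In neither ratio did DUX_DOX overlap another group. Such a ratio shows unequal change of 2 genes, not which of them changed. It restates the fold changes above and is no separate observation.

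A part of the fast fibre genes fell as well, by less than Aqp4. Of 15 fast-twitch genes 6 fell and 0 rose in DUX_DOX against EV_DOX, with a median log2 fold change of -0.29, where 10.3% of all genes fell and 14.9% rose. All 15 had a negative log2 fold change. Their summed level was 153848 to 165411 CPM in EV_DOX and 120314 to 136633 CPM in DUX_DOX. Casq1, the calcium store protein of fast fibres, fell by 0.51 (SE 0.10, edgeR adjusted p = 0.00229), Mylk2, the skeletal myosin light chain kinase, by 0.49 (SE 0.11, adjusted p = 0.00409) and Mybpc2, fast myosin binding protein C, by 0.40 (SE 0.10, adjusted p = 0.0112). Myh4 had a log2 fold change of -0.43 (SE 0.15, edgeR adjusted p = 0.0506), Myh1 of -0.22 (SE 0.22) and Myh2 of -0.08 (SE 0.33). Without DUX_DOX 3 the count was 3, and with the DESeq2 Wald test it was 10. Of 10 slow-twitch genes 1 fell, Myl3 (-0.63, SE 0.15), and Myh7 had a log2 fold change of -0.68 (SE 1.10). Slow-twitch calls numbered 2 without EV 2, EV 3 or DUX_DOX 2 and 3 without EV_DOX 2. Per 1000 Myh4 reads there were 0.926, 1.00 and 1.24 Aqp4 reads in EV_DOX 1 to 3 and 0.663, 0.495 and 0.766 in DUX_DOX 1 to 3, again without overlap. The libraries hold no separated fibres, so the fibre type in which Aqp4 was expressed was not measured.

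**Figure D3:**
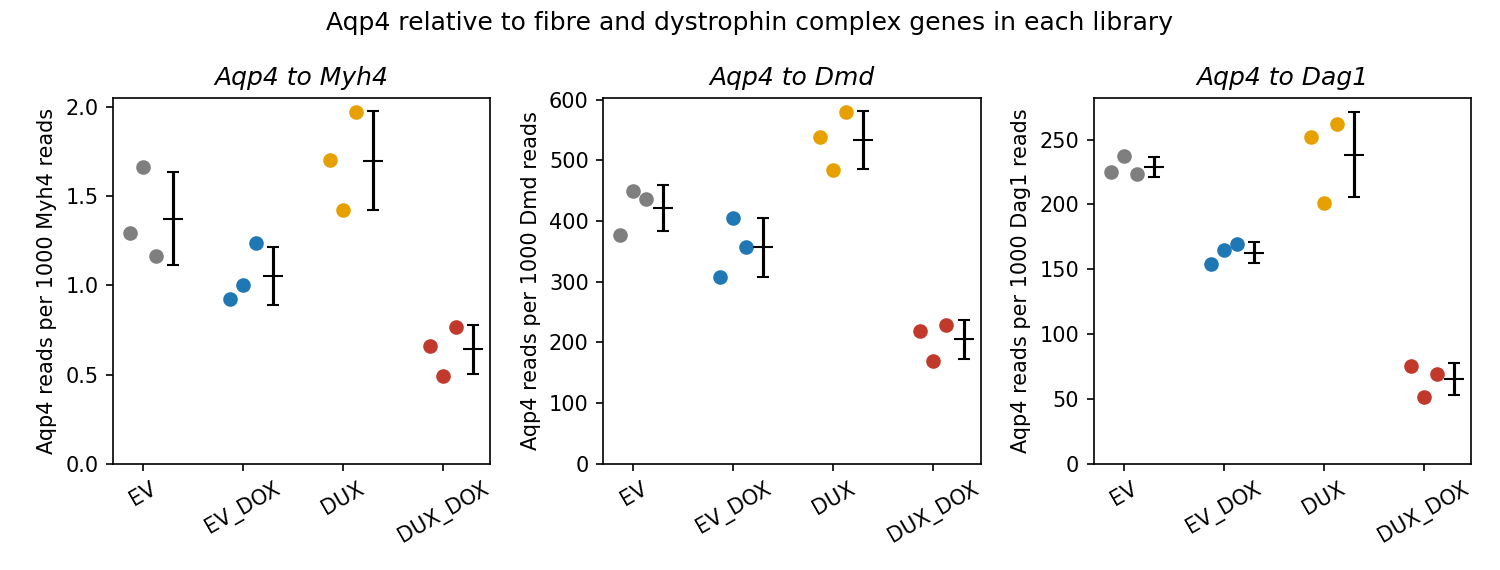
Aqp4 reads per 1000 reads of Myh4, Dmd and Dag1 (vertical axes, from 0) in each library, by group. Points are libraries and black bars the mean and SD of 3 libraries. In all 3 ratios the DUX_DOX libraries lie below every other library.

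Genes of ion transport and cell volume, which set the gradients that water follows, moved in both directions. Of 26 measured, 6 rose and 4 fell in DUX_DOX against EV_DOX, with a median log2 fold change of 0.06, where 14.9% of all genes rose and 10.3% fell. Stk39, a kinase that activates sodium-potassium-chloride cotransport, rose by 1.67 (SE 0.18, edgeR adjusted p = 1.45e-05). Slc12a2, the cotransporter itself, fell by 0.79 (SE 0.11, edgeR adjusted p = 0.000119). Nfat5, the transcription factor of the response to high tonicity, had a log2 fold change of 0.23 (SE 0.12, edgeR adjusted p = 0.185). In the interaction 5 of the 26 passed, where 10.4% of all genes did, 2 higher and 3 lower, among them Stk39 (1.91, SE 0.27) and Slc12a2 (-0.51, SE 0.15).

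Glycerol handling is the setting of Aqp7. Of 13 measured genes 6 fell and 1 rose in DUX_DOX against EV_DOX, with a median log2 fold change of -0.20, where 10.3% of all genes fell. Gpam, which starts triglyceride synthesis from glycerol phosphate, fell by 0.86 (SE 0.11, edgeR adjusted p = 4.92e-05) and Gpd2, the mitochondrial glycerol phosphate dehydrogenase, by 0.53 (SE 0.12, adjusted p = 0.00481). Gk, the glycerol kinase, rose by 1.02 (SE 0.18, adjusted p = 0.00100). Its mean level was 2.13 CPM in EV_DOX (SD 0.184) and 4.33 in DUX_DOX (SD 0.389). Without DUX_DOX 3, 4 genes passed. Of 7 adipocyte markers measured, all had a negative log2 fold change and 1 passed, where 25.3% of all genes did, Plin4 (-0.77, SE 0.12, edgeR adjusted p = 0.000292), or 2 without EV 2 or EV_DOX 1. Their summed level was 277 to 364 CPM in EV_DOX and 220 to 242 CPM in DUX_DOX, and 0 of the 7 were at 0 counts in any library. The mean of this sum in EV_DOX was 316 CPM, with 162 CPM from Fabp4 and 144 CPM from Plin4. Which cells expressed Fabp4 and Plin4 was not measured. Adipoq, the defining marker of fat cells, had a mean of 1.35 CPM in EV_DOX (SD 0.306) and of 0.627 in DUX_DOX (SD 0.110) (log2 fold change -1.10, SE 0.49, edgeR adjusted p = 0.104). The part of fat cells in the Aqp7 result was not tested. Per 1000 Plin4 reads there were 62.3 to 96.8 Aqp7 reads in EV_DOX and 78.0 to 110 in DUX_DOX, with overlap.

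Endothelium is the setting of Aqp1. Of 17 endothelial markers 4 fell and 1 rose in DUX_DOX against EV_DOX, with a median log2 fold change of -0.18, where 25.3% of all genes passed and 10.3% fell. The count was 3 without EV 3, DUX 1 or DUX_DOX 3 and 2 without EV_DOX 1, EV_DOX 3, DUX_DOX 1 or DUX_DOX 2. Kdr, the main receptor of vascular endothelial growth factor, fell by 0.52 (SE 0.12, edgeR adjusted p = 0.00492), Ptprb, the endothelial receptor phosphatase, by 0.44 (SE 0.13, adjusted p = 0.0218) and Gpihbp1, which holds lipoprotein lipase on capillaries, by 0.40 (SE 0.13, adjusted p = 0.0308). The junction proteins Pecam1 and Cdh5 had log2 fold changes of -0.04 (SE 0.08) and -0.18 (SE 0.09), and neither passed. The summed level of the 17 was 880 to 969 CPM in EV_DOX and 822 to 833 CPM in DUX_DOX, without overlap, and 0 of them were at 0 counts in any library. Per 1000 Pecam1 reads there were 3893 to 5218 Aqp1 reads in EV_DOX and 3629 to 4368 in DUX_DOX, with overlap, and 96.6 to 127 and 75.2 to 89.4 Aqp7 reads, without overlap. Of 5 red blood cell genes 0 passed in edgeR (0 in each alternative too, and 0 at an unadjusted p under 0.05), and their summed level was 86.1 to 234 CPM in EV_DOX and 169 to 255 CPM in DUX_DOX. In DUX_DOX against DUX, where Aqp1 was called lower, 29.6% of all genes passed, 13.1% lower and 16.5% higher. Of the 17 endothelial markers 4 fell and 1 rose there (median -0.20). All 5 red blood cell genes had negative values there (median -0.74), and 1 passed, Alas2, the heme synthesis enzyme of red cells (-1.02, SE 0.36, edgeR adjusted p = 0.0467), named after its value was seen. In DUX against EV the median of the 5 was 1.12, with 5 at an unadjusted p under 0.05 and 0 that passed in edgeR. Their summed level was 130.3 to 179 CPM in EV and 224, 265 and 537 CPM in DUX 1 to 3, highest in DUX 3. The part of endothelial and red blood cells in the Aqp1 levels was not tested.

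**Figure D4:**
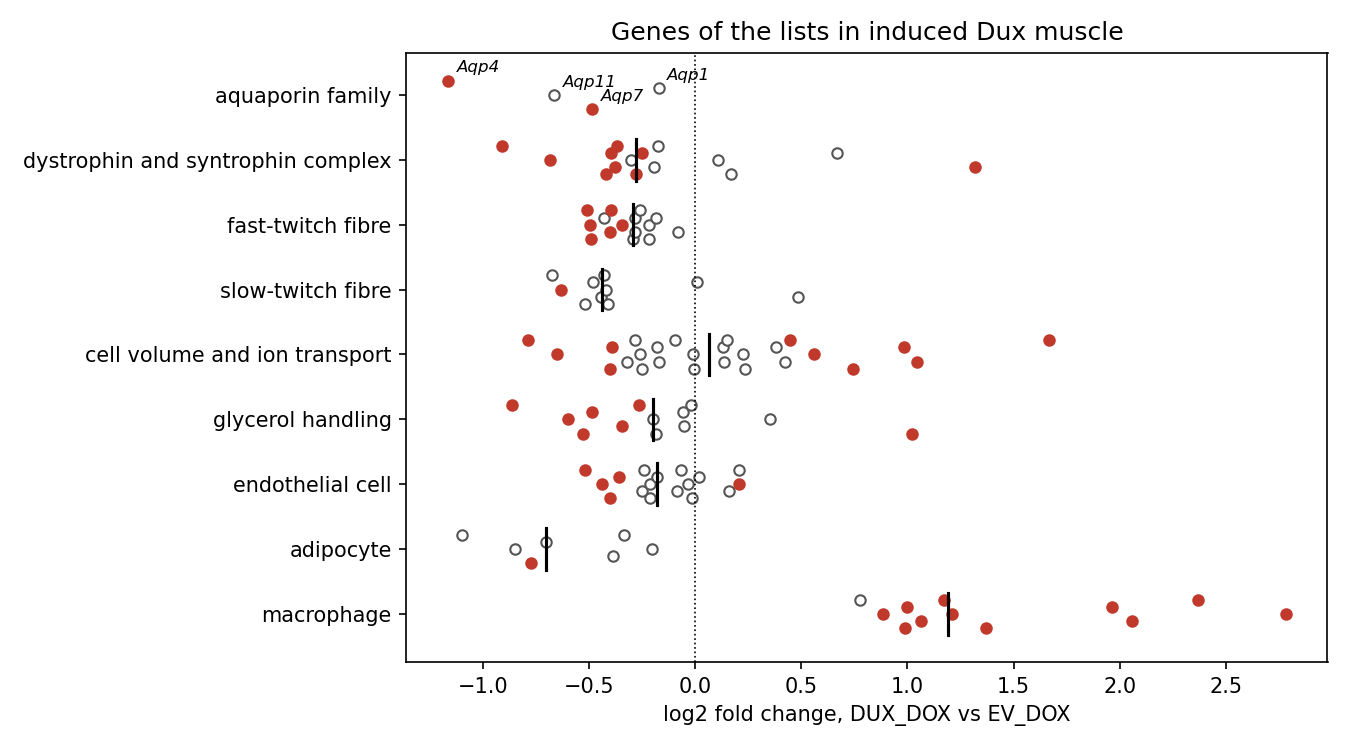
Log2 fold change in DUX_DOX against EV_DOX (horizontal axis) of every measured gene of 9 lists, 1 point per gene. Filled points passed the edgeR test at an adjusted p of 0.05, open points did not, and black bars mark list medians (none for the aquaporin family). Aqp4 (-1.16) lies below every gene of the dystrophin and fast-twitch lists.

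Macrophage markers were higher in the muscles where Aqp4 was lowest. In DUX_DOX against EV_DOX 25.3% of all genes passed, 14.9% higher and 10.3% lower. Of 12 macrophage markers 11 rose and 0 fell there, with a median log2 fold change of 1.19. Among them were Cd68 (2.78, SE 0.24, edgeR adjusted p = 1.26e-06), Itgam (2.37, SE 0.32) and Lyz2 (1.17, SE 0.15). The summed level of the 12 markers was 105 to 154 CPM in EV_DOX and 274 to 398 CPM in DUX_DOX. Of the 12, 0 were at 0 counts in any library. The part of added macrophage RNA in the aquaporin results was not tested. The other marker lists stand beside the same shares of all genes. Fibro-adipogenic genes numbered 1 higher and 0 lower of 8 (Ly6a, 0.65), and satellite cell genes 1 and 0 of 7 (Vcam1, 0.91). Smooth muscle genes numbered 2 higher and 1 lower of 8 (Tagln 0.63, Des 0.46 and Smtn -0.38). Des had a mean of 2128 CPM in EV, against 55.1 CPM for Myh11 and 55.3 CPM for Acta2. Which cells expressed Des was not measured. No gene passed in edgeR among 8 tenocyte and 8 Schwann cell genes, where 0 and 0 had an unadjusted p under 0.05, and the replicate block within chow called 1 tenocyte gene. Without EV_DOX 2, 4 Schwann cell, 5 smooth muscle and 2 fibro-adipogenic genes passed. Smooth muscle calls numbered 5 also without EV 1 or EV 2, and satellite cell calls 3 without DUX_DOX 2.

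The genes whose pattern over the 12 libraries was most like each aquaporin were sought by Pearson r of log2 CPM. The search covered 9051 genes with a mean of at least 5 CPM. Genes with provisional symbols, such as Gm with a number or an ending in Rik, were left out. The r is a description, since the libraries share 4 groups. For Aqp4 they were the mitochondrial genes Gfm2 (r = 0.97, Spearman rho 0.92), Coq5 (rho 0.90), Ptcd3 (rho 0.87), Mfn1 (rho 0.94) and Immt (rho 0.90), the last 4 also with r = 0.97. Gfm2 acts in mitochondrial translation, Coq5 in ubiquinone synthesis, Mfn1 in mitochondrial fusion and Immt in the shape of the cristae. Their log2 fold changes in DUX_DOX against EV_DOX were -0.40 to -0.52, smaller in size than that of Aqp4. Within groups, as deviations from the group mean, their r with Aqp4 was 0.39 to 0.75.

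For Aqp1 the most alike were also mitochondrial genes, Fars2 (r = 0.98, rho 0.94), Atp5o (0.97, 0.86), Ndufa8 (0.97, 0.76), Sdhc (0.97, 0.87) and Mpc1 (0.97, 0.77). They include a mitochondrial aminoacyl-tRNA synthetase, respiratory chain subunits and the pyruvate carrier, and their r of deviations within groups was 0.94 to 0.96. For Aqp7 they were Fzd4 (r = 0.97, rho 0.91), a Wnt and Norrin receptor of vessels, Ttc14 (0.94, 0.95), Lynx1 (0.94, 0.94), Ptprb (0.94, 0.83) and Sdpr (0.94, 0.96), a caveolar protein, with r of deviations of 0.88 to 0.94. Between the 3 genes themselves r was 0.68 for Aqp1 and Aqp4 (rho 0.55), 0.67 for Aqp4 and Aqp7 (rho 0.55) and 0.16 for Aqp1 and Aqp7 (rho 0.19). Within groups it was 0.51 for Aqp1 and Aqp4, -0.33 for Aqp4 and Aqp7 and -0.52 for Aqp1 and Aqp7.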

How the data were processed

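The authors deposited raw read counts per gene. The submitters' processing notes list STAR, featureCounts and bcl2fastq 2.17.1.14, with the build GRCm38. No source used here gives the annotation, the strand setting or the other versions. Per the labels' protocols, libraries were poly-A selected from 200 ng of RNA. Counts of 12 libraries were fitted together with edgeR 4.0.16 in R 4.3.3 (quasi-likelihood F test, two-sided, TMM factors 0.916 to 1.12, default filter, 1 mean per group), leaving 12751 genes. P-values were adjusted by Benjamini-Hochberg over all genes in each comparison, with a threshold of 0.05. CPM use TMM-scaled totals. Merged exon lengths came from GENCODE M21 on GRCm38 for 12723 genes. Libraries of a group differed by more than sampling noise (chi-square per degree of freedom 4.89 to 25.9).

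The 3 genes, the 15 gene lists and the rules were chosen with earlier results of these data known. Named genes were the 3 aquaporins, up to 3 called genes per list with the smallest p in DUX_DOX against EV_DOX, a fixed set (Dag1, Dmd, Myh4, Myh1, Myh2, Myh7, Pecam1, Cdh5, Gk, Nfat5, Adipoq among them) and 5 genes most like each aquaporin. AW822073 and Aqp11 were added outside this rule, and some genes that it picked are not reported here. The fit was tested on simulated data. Alternatives were other scaling, no filter, DESeq2 1.42.0, limma-voom (limma 3.58.1), fewer groups, replicate blocks and leaving out each library.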

Additional observations from a re-analysis of the deposited data

Results flagged for a closer look

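The interaction term was negative for all 3 genes, and only Aqp4 passed. It was -0.35 (SE 0.16) for Aqp1 and -0.36 (SE 0.23) for Aqp7. For Aqp4 the difference of log2 fold changes was -1.21 (SE 0.16, edgeR adjusted p = 0.000278), from 0.05 on normal chow to -1.16 on doxycycline chow. It was between -1.31 and -1.14 over all 19 alternatives, and passed in each of them.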

How the results depend on the processing

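Aqp4 kept its direction and its side of the threshold in all 20 alternatives for DUX_DOX against EV_DOX and all 19 for DUX_DOX against DUX and for the interaction. The cause of the changes below was not tested. Aqp7 in DUX_DOX against EV_DOX was not called with limma-voom (-0.48), with only the groups compared (-0.50) or with the replicate block within chow (-0.48), and leaving out 1 library moved it from -0.62 to -0.34. Aqp7 in DUX_DOX against DUX was called with only the groups compared (-0.43), and ranged from -0.51 to -0.37 without 1 library. Aqp4 in EV_DOX against EV was called by the DESeq2 Wald test (-0.54), and ranged from -0.58 to -0.47. Aqp1 in DUX_DOX against DUX ranged from -0.41 to -0.28. Near 0, Aqp1 in EV_DOX against EV turned to 0.011 with upper-quartile factors and ranged from -0.12 to 0.10 without 1 library, Aqp7 there from -0.21 to 0.13, and in DUX against EV Aqp4 from -0.00801 to 0.15 and Aqp7 from -0.22 to 0.063. DESeq2 gave no adjusted p for Aqp7 in DUX against EV, and that value was left out.

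Counts of called list genes moved by more than 1.5 times as follows. Slow-twitch genes numbered 2 with DESeq2 size factors, upper-quartile factors, the DESeq2 Wald test and the replicate block over all libraries, and 3 with the block within chow. Fast-twitch genes numbered 10 and smooth muscle genes 5 with the DESeq2 Wald test, and smooth muscle genes 5 with limma-voom. With only the groups compared, the dystrophin list had 5, the endothelial list 2 and the adipocyte list 2. The replicate block gave 3 endothelial genes in both forms, and within chow 1 tenocyte and 5 smooth muscle genes. Without 1 library the counts were 4 to 9 for dystrophin, 3 to 8 for fast-twitch, 1 to 3 for slow-twitch, 4 to 7 for glycerol, 2 to 5 for endothelial, 1 to 2 for adipocyte and fibro-adipogenic, 3 to 5 for smooth muscle, 1 to 3 for satellite cell and 0 to 4 for Schwann cell genes.

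The labels tie no replicate number to an animal, and the numbers were not taken to pair libraries. Deviations of same-numbered libraries correlated across genes at -0.11, 0.09 and 0.00476 between EV_DOX and DUX_DOX, and at -0.10, 0.18 and 0.12 between EV and DUX, where numbers 2 and 3 exceeded the highest correlation with another number (0.13 and -0.06). With the replicate block over all libraries 3040 genes passed in DUX_DOX against EV_DOX, and 2817 with the block within chow. Without DUX_DOX 3 the count was 2109, against 3224 in the full fit. The interaction had 1326 genes, 2148 without EV_DOX 1 and 813 to 881 without EV 3, EV_DOX 3, DUX_DOX 2 or any 1 DUX library, and EV_DOX against EV had 0 to 12 over the alternatives, against 5. DUX against EV had 0, and 153 with the DESeq2 Wald test. Aqp7 had 95 to 183 counts per library, against 247 to 963 for Aqp4 and 4954 to 6838 for Aqp1, so its relative counting error is the largest of the 3.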
